A study of Mus musculus with 2 samples.

Results

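The most strongly open stretches of the mouse adrenal genome were described in 2 pools of adrenal gland tissue. A region was kept where the authors' DNase signal reached 10 or more in each pool, which left 708 regions of the 96584 that held a peak in both pools and of 160908 that held one in either pool. Regions are merged peaks, overlapping by at least 1 bp, of the longer of the 2 peak lists deposited per pool, and the value of a region in a pool is the highest signal among its peaks there. The members were chosen by that signal, so their signal is given as a description, and the other 95876 regions with a peak in both pools, called other shared regions here, are set beside them for what the choice did not use.

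The assay was DNase-seq, in which DNase I cuts accessible DNA in nuclei and the cut ends are sequenced. The tissue was adrenal gland, and the mice were B6CASTF1/J males, the F1 hybrid of C57BL/6J and CAST/EiJ, aged 8 to 10 months supplied by The Jackson Laboratory. Replicate 1 was a pool of 6 biosamples (pool G) and replicate 2 another pool of 6 (pool J), and 1 donor record is listed for both. There was 1 group and no untreated or other control group, each pool was 1 library, and the gland held cortex and medulla together.

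Open promoters are held free of nucleosomes by proteins that bind short DNA words close to the transcription start site (TSS). In GC-rich promoters, SP and KLF zinc finger proteins bind the GC box, written here as GGGCGG, the trimer NFY binds the CCAAT box, and NRF1, the ETS family and CREB-type proteins bind words of their own. A footprint is a short run of bases within an open region that DNase I cuts less than its flanks, the pattern that a bound protein can leave. The adrenal cortex makes steroids from cholesterol with cytochrome P450 enzymes, and the medulla makes catecholamines.

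All sequences are on the plus strand, 5′ to 3′, from the RefSeq copy of GRCm38.p6, whose coordinates are those of mm10, the build of the deposited files. The first set shows why the top of the ranking needs care: in capitals are bases that lie in 36-base windows found, letter for letter, at 2 or more places of the genome. The rRNA gene region is chr17:39846781-39846920, the region between Igf2bp3 and Gm43980 is chr6:49236421-49236620, and the region in an intron of Gphn is chr12:78350861-78351120. The last 2 hold the same stretch on opposite strands, 168 bases long and 99.4% identical.
rRNA gene region: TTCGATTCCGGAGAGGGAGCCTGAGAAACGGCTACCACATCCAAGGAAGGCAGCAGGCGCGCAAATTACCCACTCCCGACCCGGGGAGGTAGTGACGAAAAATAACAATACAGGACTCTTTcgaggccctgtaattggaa
Igf2bp3-Gm43980 region: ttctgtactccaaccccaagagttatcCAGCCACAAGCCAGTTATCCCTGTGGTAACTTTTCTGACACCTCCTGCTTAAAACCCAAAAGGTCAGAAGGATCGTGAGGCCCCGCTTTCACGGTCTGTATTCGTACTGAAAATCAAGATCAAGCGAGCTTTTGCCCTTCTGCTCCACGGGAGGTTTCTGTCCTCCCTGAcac
Gphn intron region: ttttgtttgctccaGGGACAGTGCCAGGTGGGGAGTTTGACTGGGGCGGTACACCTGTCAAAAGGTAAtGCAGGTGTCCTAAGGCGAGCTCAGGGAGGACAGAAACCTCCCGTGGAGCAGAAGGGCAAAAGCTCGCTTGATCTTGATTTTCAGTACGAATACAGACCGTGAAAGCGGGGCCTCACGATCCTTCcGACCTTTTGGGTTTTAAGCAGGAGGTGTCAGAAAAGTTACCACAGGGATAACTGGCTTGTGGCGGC

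The second set shows single-copy promoters that share an arrangement described below, a CCAAT box followed after 9 bases by CCACG, with these letters in capitals on whichever strand they lie. Parts in annotated exons were left out. The stretches are chr8:84847015-84847153 (Calr), chr10:86705510-86705611 (between Hsp90b1 and Ttc41), chr11:50325740-50325878 (Canx), chr14:118937767-118937900 (Dnajc3), chr15:88819460-88819598 (between Alg12 and Creld2) and chr10:128303227-128303334 (Pan2).
Calr promoter: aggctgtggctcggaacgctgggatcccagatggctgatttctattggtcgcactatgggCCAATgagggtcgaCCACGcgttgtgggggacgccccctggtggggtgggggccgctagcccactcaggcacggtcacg
Hsp90b1 promoter: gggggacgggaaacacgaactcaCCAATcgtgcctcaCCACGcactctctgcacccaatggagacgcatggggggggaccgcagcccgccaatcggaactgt
Canx promoter: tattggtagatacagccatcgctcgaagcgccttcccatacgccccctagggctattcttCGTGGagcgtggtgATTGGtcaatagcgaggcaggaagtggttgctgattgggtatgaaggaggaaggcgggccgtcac
Dnajc3 promoter: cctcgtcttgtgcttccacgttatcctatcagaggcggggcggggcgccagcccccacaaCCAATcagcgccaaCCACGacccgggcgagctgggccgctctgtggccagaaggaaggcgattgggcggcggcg
Alg12 promoter: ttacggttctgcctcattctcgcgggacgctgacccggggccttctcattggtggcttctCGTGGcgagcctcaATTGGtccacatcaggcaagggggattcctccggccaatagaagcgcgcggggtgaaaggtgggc
Pan2 promoter: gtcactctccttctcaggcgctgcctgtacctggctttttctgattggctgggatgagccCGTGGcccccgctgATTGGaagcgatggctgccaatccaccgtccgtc

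The third set shows open regions inside introns of clock genes, with bases covered by footprints of both pools in capitals. They are chr11:69097021-69097300 in Per1 and the first 300 bases of the region chr11:98773781-98774180 in Nr1d1. The Per1 stretch holds 1 CRE (TGACGTCA) and the Nr1d1 stretch 2 E-boxes (CACGTG) and 5 GC boxes.
Per1 intron region: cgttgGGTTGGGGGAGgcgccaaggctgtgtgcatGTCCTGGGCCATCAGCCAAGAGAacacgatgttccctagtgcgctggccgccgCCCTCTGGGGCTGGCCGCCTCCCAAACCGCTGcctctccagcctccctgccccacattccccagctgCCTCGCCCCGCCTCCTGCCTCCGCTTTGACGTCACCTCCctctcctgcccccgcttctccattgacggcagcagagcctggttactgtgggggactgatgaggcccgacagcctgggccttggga
Nr1d1 intron region: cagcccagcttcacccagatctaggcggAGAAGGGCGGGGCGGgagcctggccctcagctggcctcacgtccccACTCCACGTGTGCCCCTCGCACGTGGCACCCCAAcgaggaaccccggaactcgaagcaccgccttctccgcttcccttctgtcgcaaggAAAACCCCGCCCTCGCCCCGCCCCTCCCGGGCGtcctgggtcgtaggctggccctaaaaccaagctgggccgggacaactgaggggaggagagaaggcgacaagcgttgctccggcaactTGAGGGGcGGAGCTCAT

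In replicate 1 the strong regions ranged from 10.0 to 51.6 in signal around a median of 11.7, and in replicate 2 from 10.1 to 75.8 around 13.6. Replicate 1 set the membership: 712 regions reached 10 there, of which 4 missed it in replicate 2, while 1371 reached it in replicate 2, of which 663 missed it in replicate 1. Just inside the threshold were the promoters of Fam53a (10.0 in replicate 1 and 12.6 in replicate 2) and of 1700113A16Rik (10.0 and 11.5) and a region 1067 bp upstream of Slc25a39 (10.0 and 12.2). Just outside were the promoters of Pum3 (9.99 and 11.5), Rras (9.99 and 11.4) and Rrs1 (9.99 and 12), so the boundary separates regions of nearly equal signal.

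**Figure D1:**
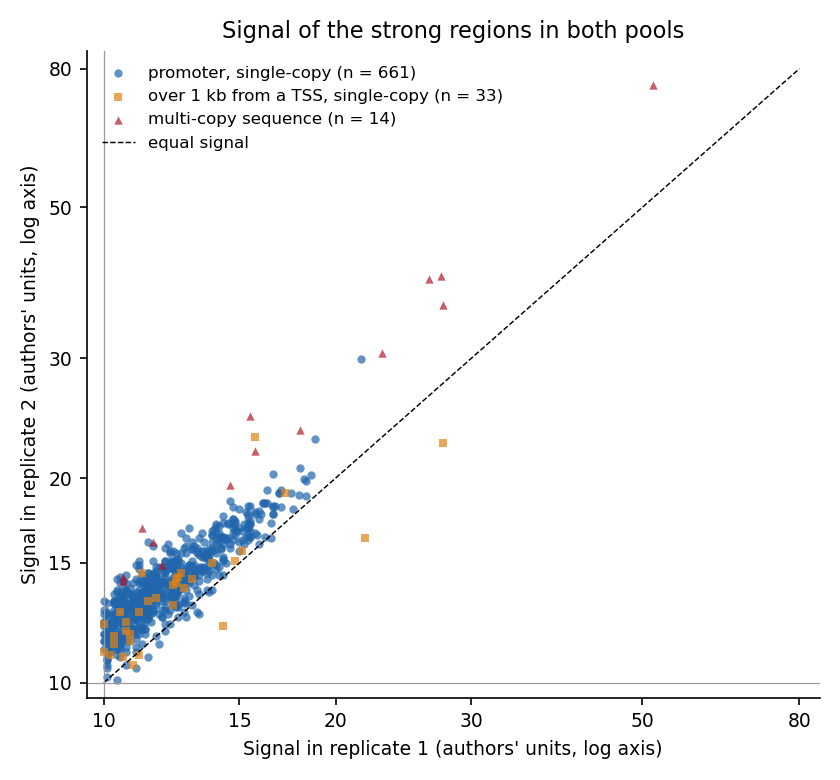
Signal of each strong region in replicate 1 (x axis) and replicate 2 (y axis), in the authors' units on log axes, by kind of region. The 661 single-copy promoters form a narrow band mostly just above the line of equal signal, and multi-copy sequences take the 5 highest places by mean rank.

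Strong regions were mostly promoters. A midpoint within 1 kb of an annotated TSS was found for 668 of the 708 strong regions, 94.4% (exact 95% binomial interval 92.4 to 95.9, counting error only), against 24.3% of the other shared regions. Introns held 1.84% of the strong regions and 39.2% of the others, the space between genes 3.11% and 32.3%, and exons 0.706% and 4.15%. The share of promoters grew with signal below the threshold too, being 12.7% of regions whose lower pool value was under 0.5, 49.6% of those between 2 and 5, and 85.2% of those between 5 and 10.

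**Figure D2:**
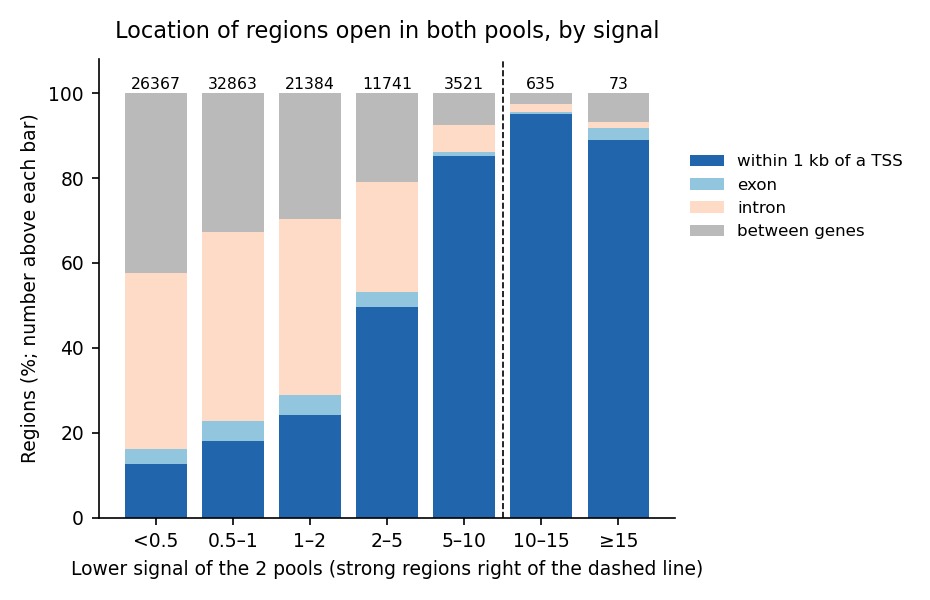
Share of regions open in both pools (y axis, %) in each location class, by the lower of the 2 pool signals (x axis, authors' units, low to high). Promoters make up 95% of the class from 10 to 15 and 89.0% of the 73 regions at 15 or more.

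Within promoters, the strong regions lay just upstream of the start site. For the 644 whose midpoint had a protein-coding TSS within 1 kb, it was at a median of -113 bp from the nearest one in the direction of transcription (quartiles -172 and -58.0), and 88.5% of midpoints were upstream. The other shared promoters centred at -15 bp, with 55.6% upstream. A coding TSS on each strand lay within 1 kb of 16.3% of the strong promoters, against 6.83% of the other shared promoters. Strong promoters were GC-rich, with a median GC share of 63.2% against 61.3%, and held a median of 0.81 of the CpGs their base content predicts, against 0.69. Single-copy promoters with a lower pool value of 5 to 10 had medians of 64.2% and 0.84. At 10 to 15 these were 63.3% and 0.81, and at 15 or more 61.9% and 0.80. Both medians were thus no higher in the strong classes than just below the threshold.

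Chromosomes 7 and 11 carried 78 and 77 strong regions, which is 13.03 and 11.23 per 1000 shared regions, against 7.48 over all autosomes. Chromosome X carried 4, or 1.62 per 1000, and each of these had similar sequence elsewhere, described below. Outside these 4, the most open X region by its lower pool value was the promoter of Kdm6a, a histone demethylase gene, with 9.49 in replicate 1 and 9.84 in replicate 2, just under the threshold. Over single-copy promoter regions, the median of the lower pool value was 0.877 on X and 1.44 on autosomes. The mice were males, with a single X beside paired autosomes, and no correction for this was made here. Its part in the X values was not tested.

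The 10 single-copy promoters with the highest mean signal over the pools included no gene of the steroidogenesis or chromaffin lists described below. Each list holds only 18 of the 13533 open coding genes, so an absence among 10 promoters says little about those lists. Hjurp, whose protein deposits the histone CENP-A at centromeres, reached 21.6 in replicate 1 and 29.9 in replicate 2. Dnpep, an aspartyl aminopeptidase gene, had 18.8 and 22.8. Gatad2a, a subunit of the NuRD complex, had 18.6 and 20.2, and Rab11b, a GTPase of recycling endosomes, had 18.2 and 19.9. After Hjurp and Dnpep the values run close together.

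Others of these 10 lay within a narrow range. Eif5a, a translation factor, had 18.3 in replicate 1 and 19.8 in replicate 2. Mtmr4, a lipid phosphatase gene, had 18.3 and 18.8, and Ankhd1 had 16.6 and 20.3. Gpbp1, named for binding GC-rich promoters, had 17.9 and 18.9. Fzr1, which encodes an activator of the anaphase-promoting complex, had 17.5 and 19.0.

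In all, 764 protein-coding genes had a strong region within 1 kb of a TSS, which is 5.65% of the 13533 genes with a shared region there. Here the distance runs from the edges of a region, not from its midpoint as in the location classes above, so genes such as Fbrs and Slc25a39 are counted although the midpoints of their regions lie just over 1 kb away. With this distance 60 strong regions had no coding gene, and 1 region can serve neighbouring genes. The lists below are read against that 5.65%, no test was made over them, and nothing is called particular to a list.

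Core adrenal identity genes were open and mostly below the strong class, as were most open coding genes. Markers of the cortex had promoter signals between 1.16 (Mc2r, the corticotropin receptor) and 5.44 (Star, which moves cholesterol into mitochondria) in replicate 1, and between 1.54 and 6.52 in replicate 2. Medullary Th, Dbh and Chga had 0.706 to 1.72 in replicate 1 and 1.22 to 2.37 in replicate 2, while Hnf4a, Acta1, Prm1 and Rbfox3, markers of other organs, had no promoter region in both pools. Of 18 steroidogenesis genes open in both pools, 2 were strong (11.1%, beside 5.65% over all open coding genes), both of them electron donors. Por, which feeds microsomal P450 enzymes, had 14.4 in replicate 1 and 16.3 in replicate 2, and Fdxr, which passes electrons through ferredoxin to mitochondrial P450 enzymes, had 12.6 and 13.8. None of 18 open chromaffin cell genes was strong. The median lower pool value over open genes was 4.58 for steroidogenesis, 1.27 for chromaffin cells and 3.01 for all coding genes. In bulk tissue, fewer cells of a type and less open DNA per cell cannot be told apart, and the medulla is the smaller part of the gland.

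Of the 20 cholesterol synthesis genes, all open in both pools, 4 were strong. Hmgcs1, which makes the precursor that HMG-CoA reductase uses, had 11.9 in replicate 1 and 13.5 in replicate 2, and Mvd, the mevalonate diphosphate decarboxylase, had 11.5 and 13.4. Fdft1, squalene synthase, had 11.7 and 13.9, and Dhcr7, which catalyses a last step to cholesterol, had 12.6 and 14.5 in a region that also lies near the TSS of Nadsyn1. The 4 values lie within a narrow range in each pool.

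The circadian clock list had the highest share of strong promoters, 6 of 21 genes or 28.6%, beside 5.65% over all open coding genes. Nr1d2 and Nr1d1, which encode the REV-ERB repressors, had 16.6 and 14.7 in replicate 1 and 17.7 and 18.1 in replicate 2. Per1, a repressor of the core loop, had 15.9 in replicate 1 and 17.4 in replicate 2. Dbp and Tef, PAR bZIP output factors, had 14.8 and 10.4 in replicate 1 and 17.2 and 11.9 in replicate 2. Arntl, which encodes the activator BMAL1, had 10.6 in replicate 1 and 11.6 in replicate 2.

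Of the 33 single-copy strong regions over 1 kb from every TSS, 3 had Nr1d1 or Per1 as the nearest gene, and the share of other distal regions at clock genes was not computed. The Nr1d1 intron region shown above had 17.2 in replicate 1 and 19.0 in replicate 2, more than the Nr1d1 promoter in each pool, and a further region 8178 bp from the TSS had 10.8 and 11.5. The Per1 intron region had 12.5 and 14.3, and its CRE lay inside a footprint of both pools. The 2 E-boxes of the Nr1d1 stretch, the word that CLOCK and BMAL1 bind, also lay in capitals, that is in footprints of both pools.

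Other lists with a share above the background were translation factors (14 of 69, 20.3%), heat shock and chaperone genes (14 of 85, 16.5%), glucocorticoid response (2 of 15, 13.3%) and immediate early genes (3 of 25, 12%). The strong genes of the translation list included Eif4a1, the RNA helicase of the cap-binding complex (15.9 in replicate 1 and 17.9 in replicate 2), and Eif1 (12.8 and 16.3). The 14 also count the kinase genes Eif2ak3 and Eif2ak4 and the methyltransferase gene Eef2kmt, which modify such factors and are not factors themselves. Strong immediate early genes were Jun (15.4 and 16.9), Klf6 (13.1 and 14.9) and Atf3 (11.5 and 13.9), and the glucocorticoid genes were Per1 again and Ddit4, an inhibitor of mTOR signalling (13.8 and 15.7). Respiratory chain, splicing, ubiquitin and ribosomal protein genes had 7.59 to 7.98% strong, near the background. Zinc finger (Zfp) genes had 3.52% (12 of 341), proteasome genes 2.13% (1 of 47), and of 58 open replication-dependent histone genes 0 were strong.

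**Figure D3:**
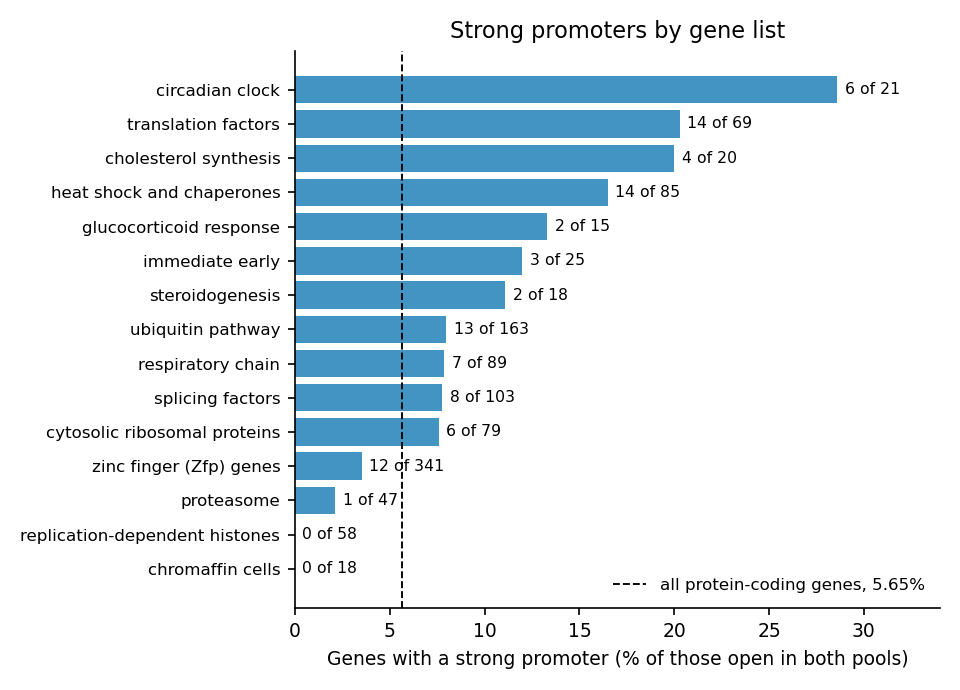
Genes with a strong promoter as a share (x axis, %) of the genes of each list (y axis) with a shared region at a TSS in both pools, with the counts beside the bars. The dashed line is the share over all protein-coding genes, 5.65%.

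The 14 strong genes of the chaperone list included 4 HSP70 genes and 6 genes of their J-domain partners. Hspa5, the HSP70 of the endoplasmic reticulum, had 15.2 in replicate 1 and 16 in replicate 2, and Hsp90b1, the HSP90 of the same compartment, had 13.8 and 14.4. Stip1, which links HSP70 to HSP90, had 16.5 and 16.3. The cytosolic Hspa8 had 13 and 15.1, and the J-domain partner genes Dnajb9, Dnajb11 and Dnajc3 had 12, 10.8 and 10.6 in replicate 1 and 15.8, 12.4 and 12.4 in replicate 2.

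Among the 12 motifs searched, the CCAAT box differed most between strong and other promoters in percentage points. Within 100 bases of the midpoint, on either strand, it was present in 64.9% of the 661 single-copy strong promoters and in 25.7% of the 23023 other single-copy shared promoters. With 2 or more boxes there were 37.2% and 6.95%, with 3 or more 15.9% and 1.82%, and the mean number per region was 1.26 and 0.349. The GC box was present in 72.0% of strong and 44.7% of other promoters, and 56 strong promoters (8.47%) held neither word, against 41.9% of the others. These windows follow the midpoints, which near a coding TSS lay at a median of -113 bp in strong and -15 bp in other promoters. They therefore cover different parts of the promoter, and the part of this in the shares was not tested.

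The share of promoters with a CCAAT box grew with signal from a lower pool value of about 2 upward, also outside the strong class. It was 20.8% of promoters under 0.5, 17.9% at 0.5 to 1 and 19.5% at 1 to 2, with no growth over these classes. It was then 29.6% at 2 to 5, 49% at 5 to 10, 64.2% at 10 to 15 and 71.7% of the 60 promoters at 15 or more. GC boxes reached 69.6% at 5 to 10 and 72.9% at 10 to 15, then 63.3% at 15 or more. ETS words were most frequent at 5 to 10 (29.5%) and lower at 10 to 15 (21.5%). Among promoters with an observed over expected CpG of 0.6 or more, the CCAAT shares were 13.1% under 0.5, 12.7% at 0.5 to 1 and 64.2% at 10 to 15.

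**Figure D4:**
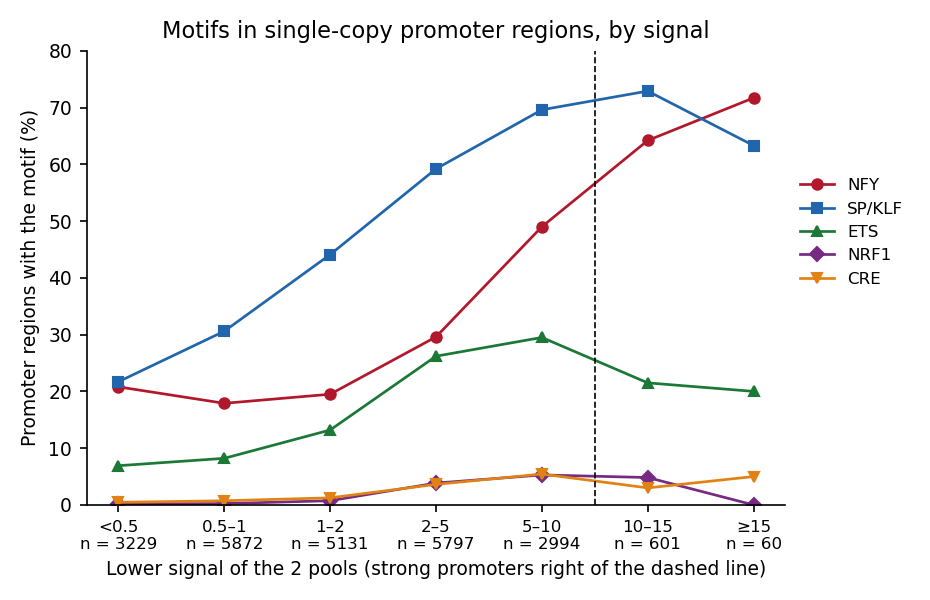
Share of single-copy promoter regions (y axis, %) with a match to each motif within 100 bases of the midpoint, by the lower of the 2 pool signals (x axis, low to high). The NFY motif is the CCAAT box, whose share is between 17.9% and 20.8% in the 3 classes below 2 and 71.7% at 15 or more.

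The difference was present within classes of like base content. In promoter regions with 60 to 65% GC, 69.2% of 234 strong and 26.2% of 4763 other promoters held a CCAAT box, and with 55 to 60% GC the shares were 78.6% of 140 and 29.1% of 3859. The gap was smallest at 65 to 70% GC, where 46.9% of 207 strong and 23% of 4543 other promoters held one. A count of all 2080 words of 6 letters was made after the CCAAT share was seen, in the same windows of the same promoters. It counts the same boxes again and shows only how they rank among words. Of 1732 words in at least 20 strong promoters, ACCAAT had the highest ratio of strong to other promoters (32.8% against 7.18%, ratio 4.58). The next was CCAATA (ratio 3.94), and 5 of the first 10 held CCAAT. The median ratio over all these words was 0.998.

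CCAAT boxes of strong promoters lay at a median of -114 bp from the nearest coding TSS (809 boxes, quartiles -188 and -55.0), against -52.0 bp for 7029 boxes of other promoters. The window follows the midpoint of each region, which itself lay farther upstream in strong promoters, so the 2 medians are not independent of that shift. They lay on both strands, with 52.9% of the boxes of strong and 47.0% of those of other promoters on the strand of the gene. Neighbouring boxes in 1 promoter were a median of 45.5 bp apart in strong promoters and 41.0 bp in the others.

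**Figure D5:**
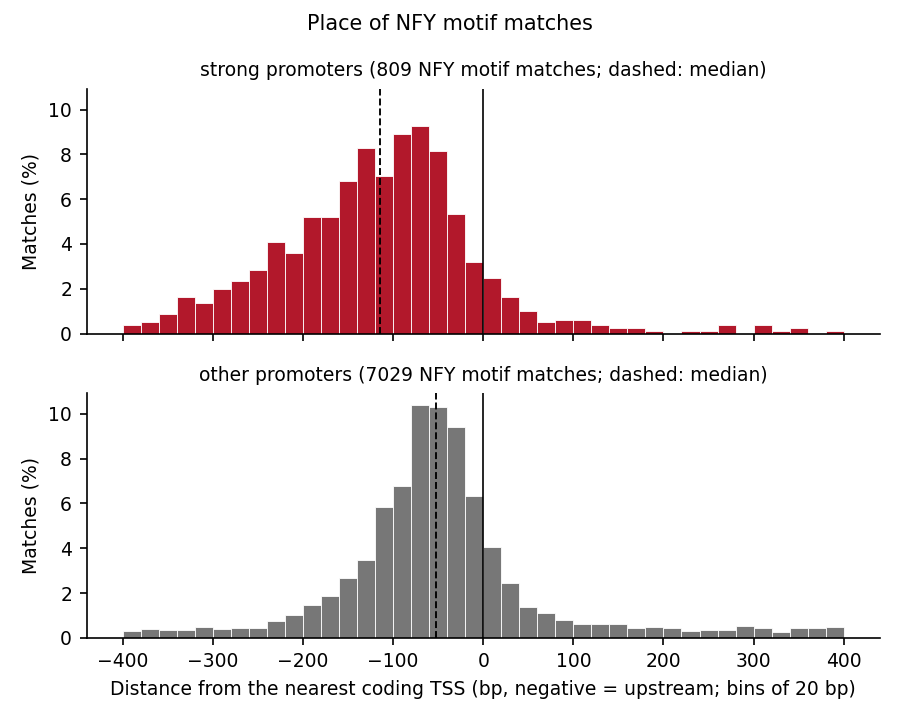
Share of CCAAT boxes (NFY motif, y axis, % per 20 bp bin) by distance from the nearest coding TSS (x axis, bp, negative upstream), strong promoters above and other shared promoters below. The dashed lines are the medians, -114 bp and -52.0 bp.

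The other searched words gave smaller or opposite contrasts over all strong and other shared promoters (668 and 23315 regions). NRF1 (GCGCATGCG) was in 4.34% and 1.89%, ZNF143 (ACTACAA) in 4.64% and 2.38%, the E-box (CACGTG) in 10.5% and 6.72%, ETS (CCGGAA) in 21.4% and 16.4%, and CRE (TGACGTCA) in 3.14% and 2.13%. AP-1 (TGAGTCA) was in 1.65% of strong and 5.82% of other promoters, YY1 (AAGATGGC) in 1.65% and 2.40%, and CTCF in 0.749% and 1.72%. NR5A1 (TCAAGGTCA), the word of the steroidogenic factor SF-1, was in 1 of the 668 strong promoters and in 131 of the others. NFI was in 0.150% and 0.0472%. Each word was searched on both strands, none of those spelled out here contains another, and a match is a description and not a bound site.

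A CCAAT box followed after 9 bases by CCACG was searched for after the chaperone genes had been seen, because that spacing is the known endoplasmic reticulum stress element, at which NFY and ATF6 bind. It was present in 7 of 661 strong promoters (1.06%) and in 7 of 23023 other promoters (0.0304%). The 7 strong ones lay at Hspa5, Hsp90b1, Calr, Canx, Dnajc3, Alg12 with Creld2, and Pan2. Calr and Canx encode the lectin chaperones calreticulin and calnexin, and Alg12 encodes a mannosyltransferase of glycoprotein assembly. Their signals were 10.6 to 15.2 in replicate 1 and 12.4 to 16.6 in replicate 2.

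Footprints covered the strong regions densely. Every strong region held at least 1 footprint in each pool, and the median number was 7 in both pools. It was 2 in the other shared regions, of which 78.4% held at least 1 in both pools. Nearer classes differed less, with a median of 3 in other shared promoters and 6 in regions with a lower pool value of 5 to 10, in each pool. Per 100 bp the medians were 2.17 in strong regions and 0.882 in the others in replicate 1, and 2.14 and 0.938 in replicate 2. This density hardly grew past the class from 5 to 10, where it was 2.08 in replicate 1 and 2.14 in replicate 2. Footprints come from the same cuts as the signal, so the number of footprints and the number of cuts cannot be told apart.

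Footprints in strong regions were also wider, with a median of 17.0 bp in replicate 1 and 18 bp in replicate 2, against 9.00 and 10.0 bp in other shared regions. Most of those others are not promoters and have low signal, and widths were not compared within promoters or by signal class. Within 100 bases of the midpoint, 34.9% of the bases of strong promoters lay in footprints of both pools, against 11% in other promoters. The pools placed them alike, since 73.5% of the footprint bases of either pool in strong promoters were in both, against 44.2%. The most footprints were in a 900 bp region at the non-coding gene 4932412D23Rik upstream of Zbtb20, with 20 in replicate 1 and 24 in replicate 2. High numbers were also found at the promoters of Khsrp, which encodes a splicing regulator (15 and 14), Wipi1, an autophagy gene (15 and 13), and Sin3a, which encodes a corepressor scaffold (14 and 14).

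Motif words differed in how often a footprint covered them, taken as at least 50% of the letters in both pools. In strong promoters 97.9% of 47 NRF1 matches and 95.2% of 21 CRE matches were covered, against 92.6% and 83.7% in other promoters. NRF1 matches on opposite strands can overlap, so 1 site can count as 2 matches, and the 47 lay in 29 promoters. GC boxes were covered in 78.8% of 878 matches, against 39.9%, and E-boxes in 65% of 80, against 26.6%. CCAAT boxes, the most contrasting word, were covered in only 31.7% of 837 matches, against 14.2% of 8132 in other promoters. Of all bases in these windows, 34.9% lay in footprints of both pools in strong promoters and 11% in other promoters. The CCAAT share was thus below the share of all bases in strong promoters and above it in the others. The measures are not the same, since a match counts as covered from 50% of its letters. The share of covered bases differs between the groups, and its part in these shares was not tested.

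Only 40 strong regions lay over 1 kb from every TSS, and 33 of these were single-copy. They resembled promoters in composition, with a median GC share of 62.5% and an observed over expected CpG of 0.65, against 49.5% and 0.22 in other distal shared regions. GC boxes were in 22 of the 33 (66.7%) and in 6.81% of the others, CCAAT boxes in 15 (45.5%) and 22.9%, and AP-1 words in 2 (6.06%) and 21%. CRE was in 6 of 33 (18.2%), at Per1, Itpkb, Mxi1, Tle2, Slc25a39 and near Klrb1c, against 0.603% of other distal regions. A few of these regions lie just past 1 kb, such as those at Fmc1 (1072 bp) and Fbrs (1228 bp). Single-copy means here that under 50% of the 36-base windows were repeated in the C57BL/6J assembly. Copies in the genome of CAST/EiJ, the other parent strain, were not searched. The regions near Pak3, Catspere2 and Klrb1c still had a similar sequence elsewhere.

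The highest single-copy distal region was in the 3′ UTR of Cers5, a ceramide synthase gene, with 27.6 in replicate 1 and 22.5 in replicate 2. It had an observed over expected CpG of 0.06, held none of the 12 motifs, and was 1 of the few strong regions with less signal in replicate 2. A region 17883 bp from the TSS of Tfap4 and 2663 bp from the pseudogene Gm15885 had 15.7 and 23. Upstream of Trappc9 a region had 15.1 and 15.6, and at Fbrs 14.8 and 15.1. Near Morn3 the values were 13.8 and 15, upstream of Cirbp, which encodes a cold-inducible RNA-binding protein, 13 and 14.2, and in an intron of Mnt, a MAX partner gene, 12.6 and 14.5. The nearest gene is named for position only.

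Repeated sequence was concentrated at the very top of the ranking. A region was counted as multi-copy where at least 50% of its 36-base windows occurred at 2 or more places of the genome, which held for 14 strong regions (1.98%, exact 95% binomial interval 1.09 to 3.30) and for 0.933% of other shared regions. By mean rank over the pools, all of the first 5 were multi-copy and 6 of the first 10, then 3 of the regions ranked 11 to 50, 0 of those ranked 51 to 200 and 5 of the remaining 508. A sequence at least 90% identical over at least 50% of its length existed elsewhere for 23 strong regions, the 14 included. The sources used here do not say how reads that fit several places were treated, so the part of such reads in these signals was not tested.

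The strongest region of all, with 51.6 in replicate 1 and 75.8 in replicate 2, lay inside CT010467.1, annotated as an rRNA gene (chr17:39846353-39848827, minus strand). Ribosomal RNA genes are present in the mouse in long tandem arrays that the assembly does not spell out, and 81.9% of the region's windows had a copy. Of the 2 similar places elsewhere, the one on chromosome 6 was 99.3% identical and carried a signal of 0.855 and 1.06. No other strong region matched this annotated gene and its flanks, and none matched the mitochondrial genome. Sequence of the ribosomal RNA repeat beyond that stretch was not searched, so whether other strong regions match it was not tested.

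A group of 4 strong regions was linked by matches to the region in the 3′ UTR of Lars2, named here for position only. They lay in the 3′ UTR of Lars2 (26.4 in replicate 1 and 39.3 in replicate 2), between Igf2bp3 and Gm43980 (23 and 30.5), at Gm15564 near Kpna1 (18 and 23.5) and in an intron of Gphn (10.6 and 14.1). The Igf2bp3 and Lars2 stretches were 98.8% identical over 168 bases, and those of Gm15564 and Lars2 98.7% over 159 bases, in a separate part of the UTR. Gm15564 had no match to the Igf2bp3 or Gphn region. The sequence lines above show the same stretch in the Igf2bp3 and Gphn regions. The origin of the shared sequence was not tested, and the unsearched parts of the ribosomal RNA repeat are among its possible sources.

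A second such pair was an intergenic region on chromosome 3, chr3:5860361-5860530 (27.4 and 39.6), and a region in an intron of Il31ra (14.6 and 19.5), an interleukin receptor gene. The first had 19 similar places and the second 16. The second aligned in full, at 97.5% identity, with chr3:5860495-5860654, of which only the beginning lies in the first region. The first region's own match on chromosome 13, at 112578635-112578728, lay outside the second region, chr13:112578161-112578320. The 2 open regions are thus mostly different stretches of neighbouring sequence. None of the 19 similar places of the first carried a peak of its own over the aligned bases.

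The remaining multi-copy autosomal regions lay at annotated genes or pseudogenes. The promoter of Dynlt1b, a dynein light chain gene, had 27.6 in replicate 1 and 35.9 in replicate 2, and the 3 similar places on chromosome 17, at 96.5 to 97.5% identity, had at most 6.69 and 8.09. On chromosome 8, the pseudogenes 2610005L07Rik and Gm21769, 97.9% identical over these bases, had 11.2 and 11.9 in replicate 1 and 16.9 and 14.9 in replicate 2, with further similar places between 0.855 and 9.58 in replicate 1 and between 1.14 and 13.2 in replicate 2. Gm23935, annotated as a miRNA gene, had 15.5 and 24.7, and its 10 similar places had at most 2.38 and 3.01. The other strong regions with a similar place elsewhere, such as those at Catspere2 and Desi2 (97.4% identical), were not multi-copy by the 36-base rule.

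Of the 4 strong X regions, 3 lay in the pseudoautosomal part that X and Y share, at Gm21887 (15.7 in replicate 1 and 21.9 in replicate 2) and in Mid1 (11.6 and 16.1, and 10.6 and 14.3). Each was 100% identical to a stretch of Y, where no peak was listed beyond base 90744820 in either pool. The fourth lay 35530 bp upstream of Pak3 and had 21.8 and 16.3. It was not multi-copy by the 36-base rule (18.4% of windows), but 105 of its 160 bases were 97.1% identical to a place on chromosome 6 and 95.2% identical to a place in a block on chromosome 2, at 98662513 to 98666445, that holds 7 similar places.

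The pools differed less in strong regions than elsewhere. The log2 ratio of replicate 2 over replicate 1 had a median of 0.20 and an SD over regions of 0.11, against 0.35 and 0.37 in other shared regions, and 688 of 708 strong regions were higher in replicate 2. Since the lower pool value chose the members, their ratios were shaped by that choice. Spearman's rho between the pools was 0.843 over the 708 regions and 0.942 over the 95876 others, where the points share 2 libraries and the first range is cut off by the threshold.

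The 14 multi-copy regions had log2 ratios between 0.32 and 0.67 with a median of 0.46, and the single-copy strong regions ratios between -0.42 and 0.55 with a median of 0.19. The ranges overlap, and the median of the other shared regions, 0.35, lies within that of the multi-copy regions. The highest ratios were at Gm23935 (0.67), 2610005L07Rik (0.59) and the 3′ UTR of Lars2 (0.57). The lowest were at the region near Pak3 (-0.42), the 3′ UTR of Cers5 (-0.29) and a region in the 3′ UTR of Ubqln1 (-0.24; signal 14.3 in replicate 1 and 12.1 in replicate 2). The 3 lowest regions all lay away from a TSS, and with 1 library per pool no difference between pools was tested.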

How the data were processed

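DNase-seq peaks, footprints and false discovery rates were deposited by the authors for each of the 2 pools on mm10, per the labels. The authors' peak signal (0 or more, column 7 of the longer peak list) was used as deposited; its scaling, the aligner, the callers and the depth were named in none of the sources used here. The deposited footprint table holds a p-value column that is 0.01 throughout, so footprints were not ranked, and the deposited rate table lists only adjusted p-values (FDR) under 0.05; all strong regions were covered at an FDR of 0.001 over at least 90% of their bases, from the same cuts as the signal.

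Members and lists were chosen with earlier results of these data known. Genes came from GENCODE M21 (basic set; exons for sequence display from the full set). Lists held symbols or symbol patterns, and all symbols matched. The 36-base windows were counted exactly on both strands of the primary C57BL/6J assembly, by a program checked on simulated data together with the merging step. Similar places came from BLAST+ 2.17.0, word size 20. Other steps used Python 3.11.15 with pandas 2.3.3, scipy 1.17.1 and pysam 0.24.0, and samtools 1.23.1. The regions named are the highest by mean rank, the highest single-copy promoters and distal regions, multi-copy regions, those of 6 listed gene groups, those at the threshold, and extremes of footprints and of ratio; a few others (chaperone and translation examples, Sin3a, Kdm6a, and the 7 promoters with the spaced element) were named after their values were seen. The number, place and spacing of CCAAT boxes, their shares by signal and GC class, and the count of words were added after the data were seen. A few regions that these rules name are not reported here. No test was made: the pools are 1 group, the labels do not say whether they come from separate animals, and regions are not replicates. Intervals cover counting error only.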

Additional observations from a re-analysis of the deposited data

How the results depend on the processing

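Of 42 alternatives to the settings above, 5 were added after the data were seen (those on CCAAT). Of the 42, 27 stayed within 1.5 times the count or within the 95% interval of the share or median. Counts and shares have no direction to reverse, and the median log2 ratio stayed positive in each of its alternatives. The number of strong regions, 708, was 1474, 311 and 73 with thresholds of 8, 12 and 15; it was 1371 when replicate 2 alone decided (without replicate 1) and 712 when replicate 1 alone did. The promoter share of 94.4% was 89.0% at a threshold of 15, 92.2% within 500 bp and 96.0% within 2 kb of a TSS, and 92.7 to 94.2% with 1 pool left out. The multi-copy share of 1.98% was 11% at a threshold of 15, 0.847% with 76-base windows, 4.24% counting any repeated window, and 1.31 to 2.39% with 1 pool left out. The median log2 ratio of 0.20 was 0.14 at a threshold of 15. The share of strong promoters with CCAAT, 64.9%, was 71.7% at a threshold of 15, 46.0% and 71.3% within 50 and 150 bases of the midpoint (17.0% and 32% of other promoters), and 60.6 to 65% with 1 pool left out. Footprints in both pools were found in 100% of strong regions with either pool left out. No paired analysis was possible because the 2 pools are replicates of 1 group with no contrast between them. The depth of the libraries is unknown.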
